A study of Mus musculus with 24 samples.

Results

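The difference between 2 effects of methionine restriction (MR) on the mouse liver transcriptome was examined here, one measured on casein and one on elemental (free) amino acids. For each gene it is the MR effect on casein minus the MR effect on elemental amino acids, in log2 units, and it is called the interaction value below. It draws on all 24 of the 24 libraries of the study, in 4 groups of 6, and was tested for 13441 of the 15161 genes in the deposited count table. The groups were casein MR, casein control, elemental MR and elemental control. All were livers of male C57BL6/J mice, an inbred strain, at 4 months of age, and total RNA was the labelled molecule. Methionine made up 0.17% of the MR diets and 0.86% of the control diets. The sample labels call casein oxidized for the MR diet alone, and the series text uses the word for the casein arm as a whole. As the samples are labelled, restriction and oxidation of the casein cannot be told apart within the casein arm. Nothing states that each library number is a separate mouse, so the spread behind each p-value may be technical in part.

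Methionine is an essential amino acid and, as S-adenosylmethionine, the methyl donor of the cell. The liver holds most of the enzymes that use it up or rebuild it from homocysteine. A shortage of an essential amino acid is sensed through uncharged transfer RNA and the translation factor eIF2, which lets the transcription factor ATF4 be made. Restriction of dietary methionine in rodents is known for raised fatty acid oxidation, raised FGF21 and lower IGF1. PPARalpha, a nuclear receptor activated by fatty acids, drives most liver genes of fatty acid oxidation.

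Each library held between 13.5 and 20.8 M counted reads. Levels are given in CPM, reads scaled to a common library size, as the median of a group with its lowest and highest library in brackets. CPM are not corrected for gene length, so they compare samples and not genes. Hepatocyte markers were abundant in every library, and the summed level of 10 of them was 86238 CPM (84670 to 94936) in casein MR, 137574 (125377 to 144122) in casein control, 121569 (112926 to 126283) in elemental MR and 141785 (136112 to 147939) in elemental control. In the casein MR library C_MR_3438, 23 skeletal muscle markers summed to 2955 CPM, against 25.2 to 117 CPM in the other 23 libraries. In the elemental control library E_C_3430, 11 pancreatic acinar markers summed to 2644 CPM, against 14.1 to 71.8 CPM in the others. Results that rest on C_MR_3438 are given with and without it. In bulk liver, fewer cells of a type and less RNA per cell cannot be told apart.

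With the quasi-likelihood test of edgeR, 315 genes had an interaction with an adjusted p under 0.05, here named called genes, 2.34% of those tested. The value was positive for 105 of them (0.781% of all genes) and negative for 210 (1.56%). A positive value means that MR moved the gene further up, or less far down, on casein than on elemental amino acids. At least a 2-fold difference between the effects was present in 97 called genes, 51 positive and 46 negative, and 1659 genes had an unadjusted p under 0.05. The MR effects themselves were called for more genes, 3137 (23.3%) on casein and 1803 (13.4%) on elemental amino acids. On casein 10.6% of all genes were called upward and 12.7% downward, and on elemental amino acids 6.78% upward and 6.64% downward. Of these, 1260 genes were called in the same direction on both sources, which is 40.2% of the casein calls and 69.9% of the elemental calls. For 1866 genes the MR effect was called on casein alone, and the interaction was called in 185 of them. For 532 genes it was called on elemental amino acids alone, and the interaction was called in 20. The remaining genes with a call on 1 source are therefore not shown to respond differently. Over all tested genes the median interaction value was -0.000986 and 49.8% of values were positive. Its median SE was 0.18, against 0.13 for each MR effect, and for 10270 genes (76.4%) the 95% interval of the interaction lay within 2-fold in either direction.

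**Figure D1:**
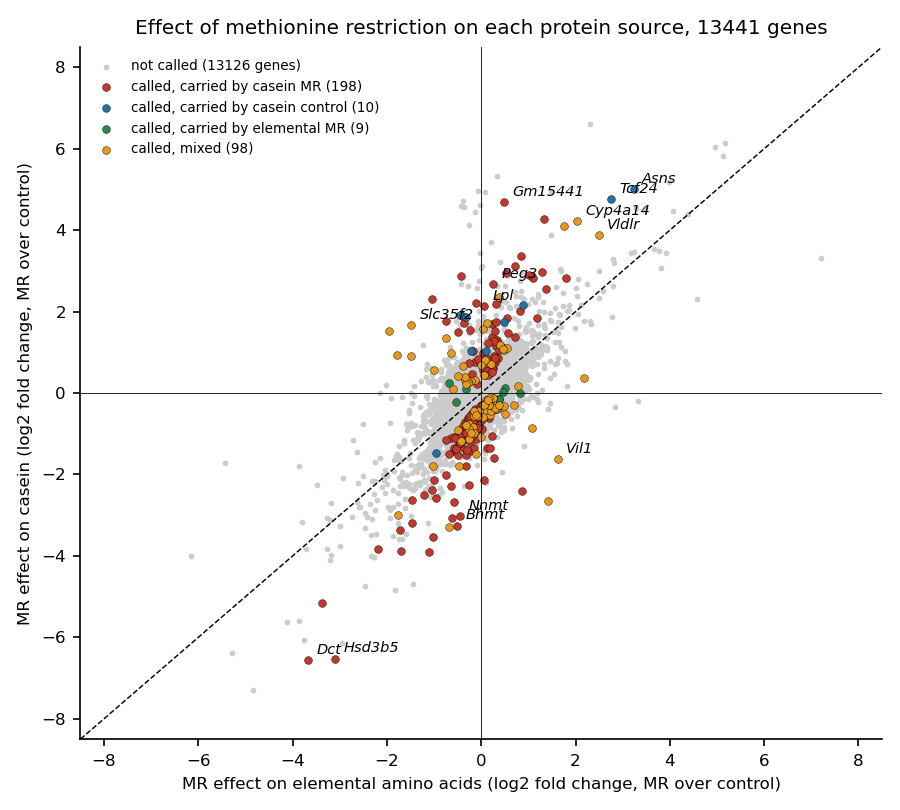
Each point is a gene, placed by its log2 MR effect on elemental amino acids (horizontal) and on casein (vertical). Grey points are not called, coloured points are the 315 called genes by the diet group that carries the difference, and the dashed line marks equal effects. Most coloured points are red (198 genes) and lie farther from 0 vertically than horizontally.

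Each called gene was then assigned to the diet group that carries its difference. The interaction can be split by protein source, into the casein and the elemental MR effect, and by diet, into the casein against elemental difference on MR and on control diets. A group carries the gene where it takes more than 2 parts in 3 of the interaction on both splits. This sorting uses the values that made the call, so it is a description. Casein MR carried 198 of the 315 genes (62.9%), 62 positive and 136 negative. Casein control carried 10 genes, 9 positive and 1 negative, and elemental MR carried 9, 3 positive and 6 negative. Elemental control carried 0 genes, and 98 were mixed. With a limit of more than 1 part in 2, the counts were 258 for casein MR, 29 for casein control, 25 for elemental MR and 3 for elemental control. Of the 98 mixed genes, 52 passed the limit for casein alone, 23 for the MR diets alone, 4 for elemental amino acids alone, 2 for the control diets alone and 17 for neither split. Among the 198 genes carried by casein MR, the median size of the MR effect was 0.91 on casein and 0.24 on elemental amino acids (log2). The rule itself makes the casein effect the larger in each of them. The elemental MR effect was also called in 75 of the 198, so these genes are not all responders on casein alone. The 6 casein MR libraries stood wholly above the other 18 in 49 of the 198 genes and wholly below them in 96. Over all 13441 tested genes, of which 2.34% were called, these counts were 106 and 176. The 198 genes were sorted by the same levels, so nothing is read from this. The direct comparison between sources was called for 873 genes (6.5%) on MR diets and for 14 (0.104%) on control diets. Without C_C_3407 the count on control diets was 33, and without E_C_3428 it was 5.

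**Figure D2:**
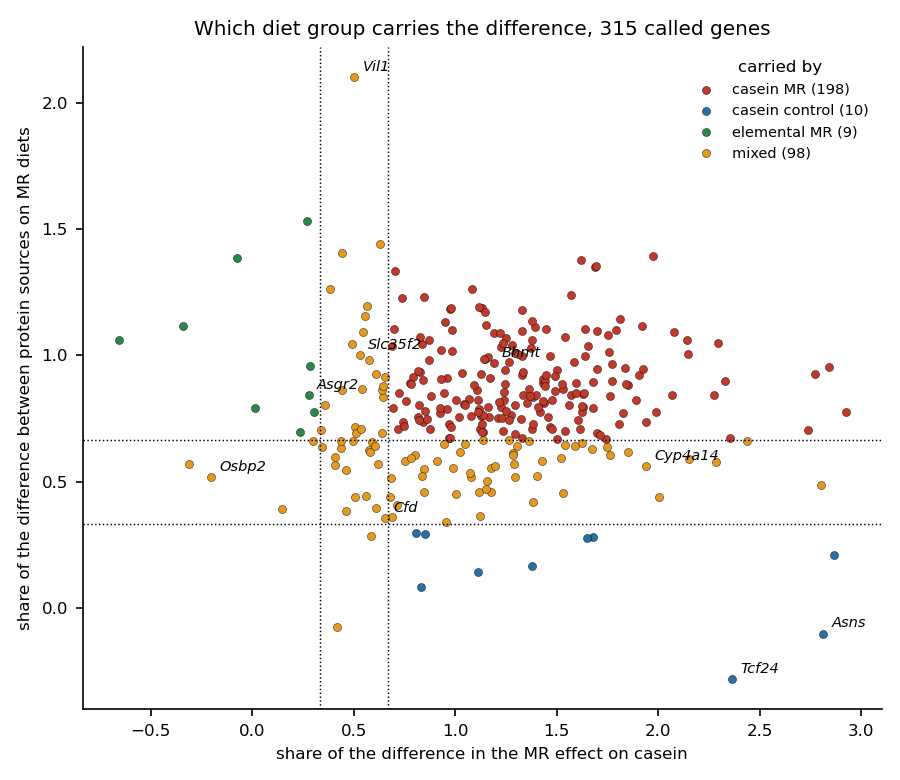
Each point is one of the 315 called genes, placed by the share of its interaction that the casein MR effect holds (horizontal) and the share that the difference between sources on MR diets holds (vertical). Dotted lines stand at 1 and 2 parts in 3, and colour gives the group that carries the gene. The 198 red genes fill the upper right, and Asns and Tcf24 are at the lower right with casein control.

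The gene with the smallest p was Bhmt (betaine-homocysteine methyltransferase), which rebuilds methionine from homocysteine with betaine as the methyl donor. Bhmt had 94.8 CPM (62.8 to 128) in casein MR, against 861 CPM (705 to 1195) in casein control. The level was 536 CPM (405 to 869.6) in elemental MR and 846 CPM (558 to 1153) in elemental control. The casein MR libraries lay below all other libraries, and the elemental groups overlapped. The log2 MR effect was -3.26 on casein and -0.52 on elemental amino acids (adjusted p = 0.0647), and the interaction value was -2.74 ± 0.27 (SE, adjusted p = 1.73e-06). Nnmt, nicotinamide N-methyltransferase, which spends methyl groups on nicotinamide, had a like pattern. Nnmt had 3.36 CPM (2.42 to 8.05) in casein MR, against 31.8 CPM (15.6 to 61.5) in casein control. On elemental amino acids it had 20.3 CPM (13.6 to 32) with MR, against 24.6 CPM (21.2 to 39.1) in the control group. Casein MR was below every other library here too, and its interaction value was -2.58 ± 0.43 (SE, adjusted p = 0.000856). Enzymes next to these in methyl metabolism had smaller interaction values. Dmgdh, dimethylglycine dehydrogenase, works one step after Bhmt in choline breakdown, with an interaction value of -0.82 ± 0.11 (SE, adjusted p = 6.99e-05). Dmgdh had 128 CPM (126 to 135) in casein MR, against 285 CPM (245 to 331) in casein control. Elemental MR livers had 231 CPM (205 to 279), against 283 CPM (267 to 350.2) in elemental control livers. Gnmt, glycine N-methyltransferase, removes surplus S-adenosylmethionine, and Gamt makes creatine from guanidinoacetate with it. The casein MR libraries of Gnmt lay below all others at 1061 CPM (801 to 1199), and the interaction value was -0.75 ± 0.15 (SE, adjusted p = 0.00494). For Gamt the level was 139 CPM (120.3 to 179) in casein MR and 292 CPM (239 to 311) in casein control, with an interaction value of -0.56 ± 0.12 (SE, adjusted p = 0.00627). These 5 genes were the called members of the list of the methionine cycle, betaine and transsulfuration, 5 of 38 tested (13.2%, against 2.34% of all genes). All 5 were negative and carried by casein MR, and the median value over the 38 was -0.17. No call was made for Mat1a, the liver S-adenosylmethionine synthetase (-0.30 ± 0.16 (SE, adjusted p = 0.466)), for Cbs, which starts transsulfuration (-0.01 ± 0.14 (SE, adjusted p = 0.99)), or for Cth, which completes it (-0.45 ± 0.28 (SE, adjusted p = 0.579)). The elemental MR effect was called for Mat1a (0.55, adjusted p = 0.00141) and Cth (0.77, adjusted p = 0.0105), whereas the casein effects of 0.25 and 0.32 were not. The difference was not shown, as the interaction intervals of these genes ran from -0.63 to 0.03 for Mat1a and from -1.03 to 0.14 for Cth.

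**Figure D3:**
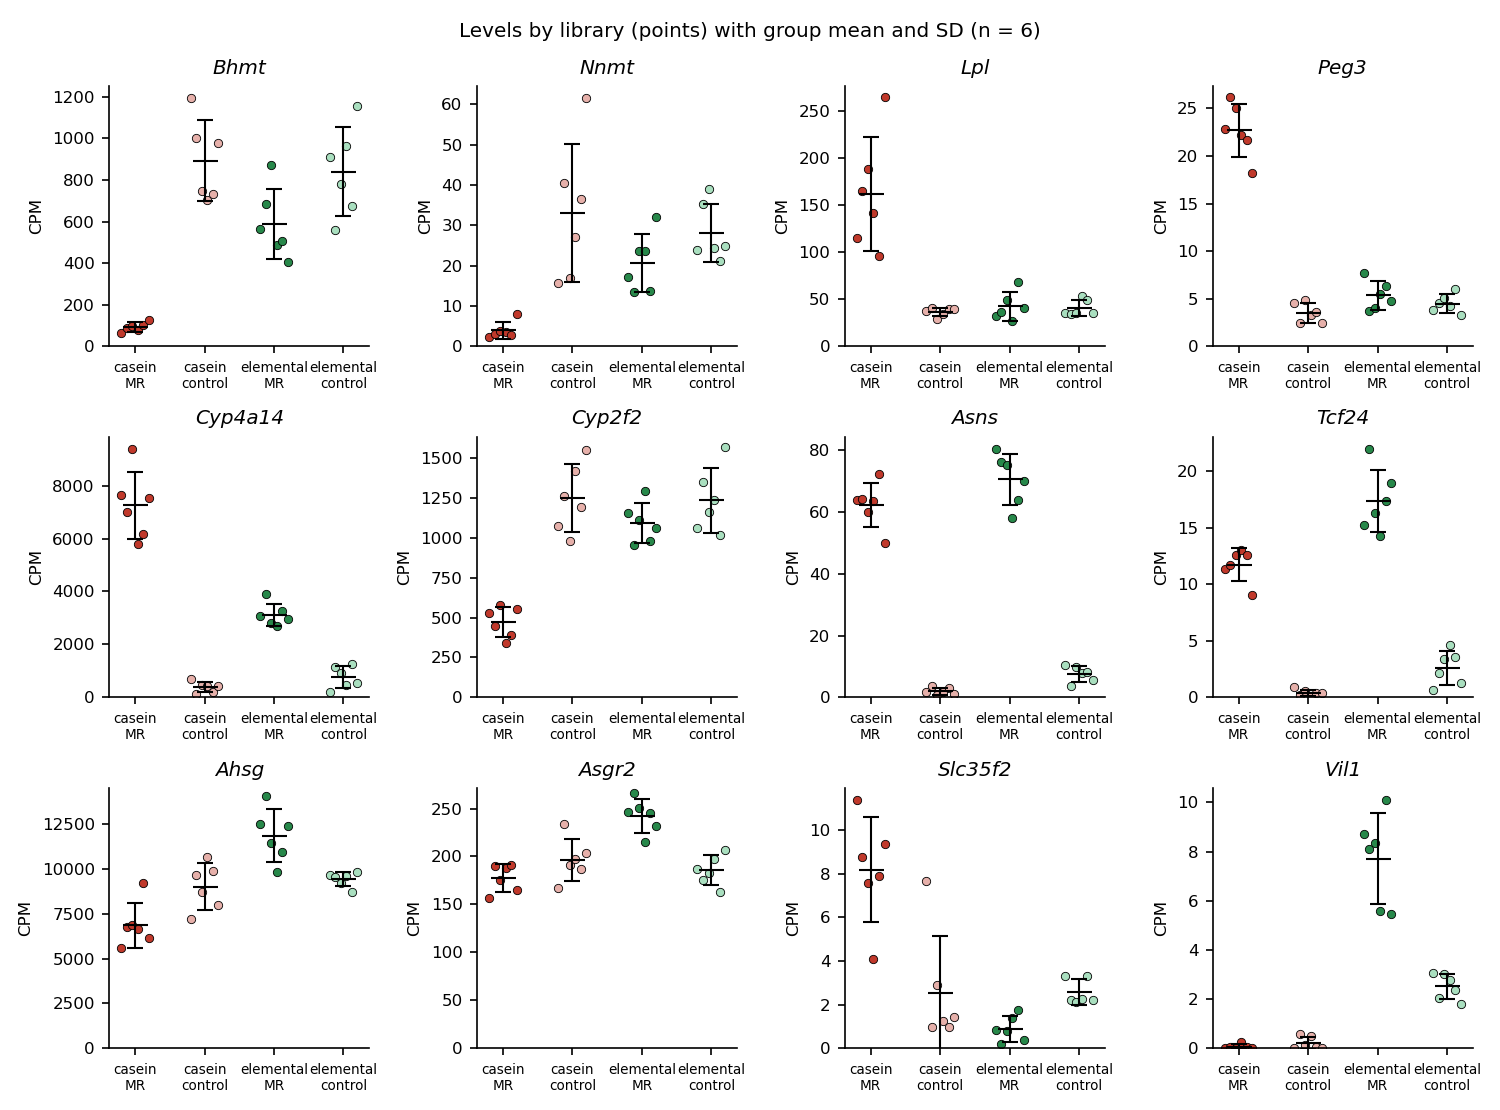
Points are the 6 libraries of each group in CPM on linear axes from 0, and bars are the group mean and SD, for 12 genes. Bhmt, Nnmt, Lpl, Peg3 and Cyp2f2 stand apart in casein MR, Cyp4a14 is highest there, Asns and Tcf24 are lowest in casein control, Asgr2 is highest in elemental MR, and Vil1 is near 0 in both casein groups.

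Among the other genes carried by casein MR with the smallest p, Peg3, an imprinted zinc finger gene, was higher in casein MR than in any other library. Peg3 had 22.5 CPM (18.2 to 26.2) in casein MR, against 3.42 CPM (2.4 to 4.87) in casein control. With elemental amino acids, MR livers had 5.16 CPM (3.67 to 7.7), against 4.37 CPM (3.26 to 6.01) in control livers. The casein groups did not overlap and the elemental groups did, with an interaction value of 2.41 ± 0.26 (SE, adjusted p = 3.43e-06). Hsd17b11, a lipid droplet dehydrogenase of the short-chain family, had an interaction value of 1.16 ± 0.12 (SE, adjusted p = 3.43e-06). Hsd17b11 had 699 CPM (603 to 911) in casein MR, against 263 CPM (253 to 344) in casein control. For elemental diets the values were 304 CPM (283 to 312) with MR and 256 CPM (219 to 285) in the controls. The 6 casein MR libraries were again above the other 18. Serinc2, of a family of membrane proteins linked to serine, had a value of 1.47 ± 0.19 (SE, adjusted p = 5.14e-05), with 52.1 CPM (43.4 to 64.6) in casein MR and 15.8 CPM (12.6 to 21.5) in casein control. Krt23, a keratin, had 34 CPM (29.2 to 45.2) in casein MR, against 2.84 CPM (1.87 to 6.53) in casein control and 2.53 ± 0.41 (SE, adjusted p = 0.000544) as interaction value. On elemental amino acids Krt23 had 2.99 to 5.97 CPM with MR. The elemental controls were at 1.05 to 2.48 CPM, apart from E_C_3430 at 5.62 CPM. Adgrg2, an adhesion receptor, reached 2.33 ± 0.33 (SE, adjusted p = 0.000158). Lpl, lipoprotein lipase, which frees fatty acids from circulating triglyceride and is low in adult hepatocytes, rose with MR on casein. Lpl had 153 CPM (95.8 to 264) in casein MR, against 38.4 CPM (29.2 to 40.2) in casein control. The highest casein MR library was C_MR_3438, which held the muscle markers, and the next was at 188 CPM. Lpl kept its call in all 24 fits made with 1 library removed. Levels in elemental MR were 38.4 CPM (26.6 to 68.6), against 35.4 CPM (34.7 to 52.9) in elemental control. Its elemental MR effect was 0.06 (adjusted p = 0.893) and its interaction value 2.08 ± 0.29 (SE, adjusted p = 0.000151).

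Several of the most negative values were carried by casein MR. Slc22a7, an organic anion transporter, fell on both sources, by 3.87 on casein and by 1.71 on elemental amino acids in log2 units, with an interaction value of -2.16 ± 0.36 (SE, adjusted p = 0.000862). Slc22a7 had 0.843 CPM (0.61 to 1.2) in casein MR, against 13.2 CPM (5.6 to 21) in casein control. In elemental MR it had 3.86 CPM (3.48 to 6.66), against 14.9 CPM (9.89 to 16.9) in elemental control. MR and control livers did not overlap on either source, and casein MR lay below all other libraries. Nat8, an acetyltransferase of cysteine conjugates, had an interaction value of -1.99 ± 0.26 (SE, adjusted p = 6.83e-05) and 6.21 CPM (3.77 to 8.05) in casein MR, against 28.9 CPM (19.6 to 36.8) in casein control. Ncam2, a cell adhesion molecule, had 0.265 CPM (0.115 to 0.413) in casein MR, against 3.99 CPM (2.98 to 5.78) in casein control, and an interaction value of -2.80 ± 0.38 (SE, adjusted p = 6.99e-05). Its elemental groups overlapped, at 1.75 to 3.68 CPM with MR and 2.69 to 6.32 CPM in the controls. Apoa4, an apolipoprotein, had 34.9 CPM (22.5 to 53.2) in casein MR, against 197 CPM (159.8 to 1315) in casein control, and -2.51 ± 0.59 (SE, adjusted p = 0.0174). One casein control library of Apoa4, C_C_3407, was at 1315 CPM, and the next highest was at 484. Ptgds, prostaglandin D synthase, had 0.309 CPM (0.183 to 0.93) in casein MR, against 1.74 CPM (0.622 to 5.03) in casein control, while elemental MR reached 6.79 CPM (4.92 to 8.73), against 3.77 CPM (1.73 to 5.5) in elemental control. Its interaction value was -3.27 ± 0.58 (SE, adjusted p = 0.00162). Cenpm and Dsg1c, a centromere protein and a desmosomal cadherin, had -2.09 ± 0.37 (SE, adjusted p = 0.00175) and -1.88 ± 0.35 (SE, adjusted p = 0.00228). Mmd2, a mixed gene, had -1.95 ± 0.46 (SE, adjusted p = 0.0189).

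Among fatty acid oxidation genes the called values were positive, and most members were not called. Of 69 tested genes on the list of PPARalpha targets and fatty acid oxidation, 18 were called, all positive (26.1%, against 2.34% of all genes). The list median was 0.31, against -0.000986 for all genes, and 57 of 69 values were above 0. The casein MR effect was called upward for 44 and downward for 4 members, and the elemental effect upward for 18 and downward for 7. Casein MR carried 14 of the called genes and 4 were mixed. The omega-hydroxylases of the Cyp4a family, which oxidise fatty acids at the methyl end, were among them. Cyp4a14 had 7268 CPM (5813 to 9377) in casein MR, against 432 CPM (126 to 699) in casein control. The level was 3007 CPM (2695 to 3892) in elemental MR and 731 CPM (202 to 1270.3) in elemental control. For Cyp4a14 both MR groups lay above both control groups, and casein MR lay above elemental MR. Its interaction value was 2.17 ± 0.47 (SE, adjusted p = 0.00906), and those of Cyp4a10 and Cyp4a31 were 1.89 ± 0.41 (SE, adjusted p = 0.00866) and 2.35 ± 0.39 (SE, adjusted p = 0.000743). These genes are close copies, so reads could be split among them by the counting, and the value of each is uncertain. Acot1 and Acot2, thioesterases that cleave long-chain acyl-CoA in cytosol and mitochondria, are also close copies, with 1.73 ± 0.35 (SE, adjusted p = 0.00535) and 1.68 ± 0.27 (SE, adjusted p = 0.000582). Ehhadh, a peroxisomal bifunctional enzyme of beta-oxidation, had 105 CPM (45.8 to 206) in casein MR, against 12.8 CPM (5.91 to 17.7) in casein control. In elemental MR it had 23.9 CPM (14.9 to 63.7), against 14.7 CPM (12.5 to 32.1) in elemental control. The casein groups did not overlap and the elemental groups did, for an interaction value of 2.40 ± 0.50 (SE, adjusted p = 0.00682).

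Mitochondrial acyl-CoA dehydrogenases, which start each round of beta-oxidation, had smaller interaction values, and those of 3 chain lengths were called. Acadm (medium chain) had 0.58 ± 0.14 (SE, adjusted p = 0.0224), Acadl (long chain) 0.38 ± 0.08 (SE, adjusted p = 0.00613) and Acadvl (very long chain) 0.31 ± 0.07 (SE, adjusted p = 0.00945). For Acadl, 428 CPM (402 to 456) in casein MR stood against 277 CPM (254 to 314) in casein control, and 347 CPM (319 to 367) in elemental MR against 300.2 CPM (259.9 to 309) in elemental control, with no overlap within either source. Hadha and Hadhb, the subunits of the trifunctional protein that completes the later steps, had 0.37 ± 0.10 (SE, adjusted p = 0.0342) and 0.54 ± 0.12 (SE, adjusted p = 0.00866). Ucp2, an uncoupling protein of the inner mitochondrial membrane, had 33.2 CPM (20.4 to 41.8) in casein MR, against 10.1 CPM (8.18 to 11) in casein control, and 1.43 ± 0.22 (SE, adjusted p = 0.000342). Cpt1a, which limits the entry of fatty acids into mitochondria, was not called (-0.06 ± 0.16 (SE, adjusted p = 0.927)). Its interval ran from -0.39 to 0.27. Decr1, an auxiliary reductase for unsaturated fatty acids, was called at the edge (adjusted p = 0.0481). The Decr1 call was lost in 18 of 24 fits made with 1 library removed, that without C_MR_3438 among them. The call of Hadha was lost in 10 of the 24.

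Hadha and Hadhb lie head to head, with starts 273 bases apart, and their RefSeq windows of 300 bases share 228 bases. The window of Hadhb is shown as a promoter shared by 2 called genes of 1 complex. It is chr5:30155003-30155302 of GRCm38.p6, plus strand, from 250 bases before to 50 after the start. Capitals mark the 50 bases after the start of Hadhb.
Hadhb: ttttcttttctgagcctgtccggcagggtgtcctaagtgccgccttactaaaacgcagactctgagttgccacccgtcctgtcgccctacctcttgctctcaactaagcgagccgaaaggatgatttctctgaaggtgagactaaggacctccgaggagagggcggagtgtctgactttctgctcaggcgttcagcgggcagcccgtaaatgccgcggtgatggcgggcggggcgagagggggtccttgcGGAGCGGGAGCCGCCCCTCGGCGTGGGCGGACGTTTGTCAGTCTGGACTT
The PPAR response element, a direct repeat spaced by 1 base, was searched on both strands and was found in 0 of the 53 list members with a window. It was in 0.04% of the 32851 windows of the table and in 0.048% of the 27025 genes, so this search can say little about 300 bases.

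Among acute phase and complement proteins, which the liver secretes into blood, the called values were negative. Of 45 tested genes on the list of acute phase and complement proteins, 15 were called, all negative (33.3%, against 2.34% of all genes). The list median was -0.39 and 3 of 45 values were above 0. Casein MR carried 11 of the called genes and 4 were mixed. The complement protease gene C1s1 had the smallest p of the list, with an interaction value of -0.54 ± 0.08 (SE, adjusted p = 0.00024). C1s1 had 136 CPM (131 to 139.5) in casein MR, against 262 CPM (243 to 278) in casein control. On elemental amino acids it had 175 CPM (149.5 to 193) with MR, against 231 CPM (206 to 249) in the control group. The MR libraries of each source were below its controls, and casein MR was below elemental MR. Orm1, an acute phase glycoprotein, and C9, the pore-forming complement component, fell on both sources. Orm1 had 58.7 CPM (36.2 to 99) in casein MR, against 618 CPM (554 to 824) in casein control. Elemental MR livers had 163 CPM (99.9 to 240.2), against 523 CPM (396 to 729.6) in elemental control livers. Their interaction values were -1.62 ± 0.31 (SE, adjusted p = 0.00324) and -1.73 ± 0.34 (SE, adjusted p = 0.00377). The clotting factor gene F9 had -0.49 ± 0.09 (SE, adjusted p = 0.00193), with 268 CPM (250.2 to 285) in casein MR and 398 CPM (343 to 446) in casein control, while the elemental groups overlapped. Of the hepatocyte markers, 5 of 10 were called, all negative. Alb, albumin, had an interaction value of -0.36 ± 0.08 (SE, adjusted p = 0.0142). Alb had 43296 CPM (41815 to 47389.6) in casein MR, against 72465 CPM (64103 to 78678) in casein control. With elemental amino acids, MR livers had 63105 CPM (58356 to 64831), against 79132 CPM (76042 to 83594) in control livers. Trf, transferrin, had -0.45 ± 0.09 (SE, adjusted p = 0.00339) and Ttr, which carries thyroid hormone, -0.35 ± 0.08 (SE, adjusted p = 0.0193). The fetuin gene Ahsg fell on casein (-0.39, adjusted p = 0.00595) and rose on elemental amino acids (0.33, adjusted p = 0.0335), for a value of -0.72 ± 0.15 (SE, adjusted p = 0.00538). The call of Ttr was lost without C_C_3437. Alb, Ttr and Ahsg stand on both lists. The 20 endothelial markers summed to 616 CPM (585 to 683) in casein MR, 618 (604.8 to 638) in casein control, 624 (604 to 629) in elemental MR and 617 (608 to 622) in elemental control. The 20 Kupffer cell markers summed to 891 CPM (852 to 1316) in casein MR, 795 (623 to 1001) in casein control, 899 (656 to 987) in elemental MR and 797 (692 to 1005) in elemental control. Of other cell types, 0 of 8 markers of antigen-presenting cells, 0 of 8 erythroid and 0 of 20 Kupffer cell markers were called by edgeR, DESeq2 or limma-voom, with 1, 0 and 1 at an unadjusted p under 0.05 in edgeR. Their interaction values were above 0 for 8 of 8 (median 0.44), 7 of 8 (median 0.65) and 18 of 20 (median 0.18). The antigen-presenting markers summed to 379.5 CPM (214 to 478) in casein MR, 294 (211 to 470.3) in casein control, 209.9 (129 to 259) in elemental MR and 217 (138 to 468) in elemental control. The erythroid markers summed to 1713 CPM (1306 to 7347) in casein MR, 2750.2 (1995 to 3677) in casein control, 2791 (1348 to 7287) in elemental MR and 5979.9 (3096 to 7470.5) in elemental control. The part of cell make-up in these results was not tested.

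In the urea cycle and amino acid breakdown, 8 of 52 tested genes were called, all negative (15.4%, against 2.34% of all genes). The list median was -0.27, and 8 of the 52 values were above 0. On casein 29 members were called downward and 0 upward, and on elemental amino acids 7 downward and 1 upward. Casein MR carried 6 of the 8 and 2 were mixed. Oat, which turns ornithine into a precursor of proline and glutamate, had an interaction value of -1.16 ± 0.22 (SE, adjusted p = 0.00238). Oat had 168 CPM (138 to 194) in casein MR, against 396 CPM (338 to 762) in casein control. For elemental diets the values were 356 CPM (245 to 406) with MR and 414 CPM (327 to 480.3) in the controls. Casein MR was below all other libraries. Asl, the urea cycle enzyme that releases arginine, had -0.63 ± 0.14 (SE, adjusted p = 0.014), with 98.7 CPM (85.8 to 117) in casein MR and 157 CPM (134 to 193) in casein control. Agxt2, a mitochondrial aminotransferase, had -0.61 ± 0.12 (SE, adjusted p = 0.00324), and Prodh, the first step of proline breakdown, -0.86 ± 0.19 (SE, adjusted p = 0.0104). Zonation markers were also looked at. Of 18 periportal markers 6 were called (33.3%), all negative and all carried by casein MR, with a list median of -0.47. Of 18 pericentral markers 2 were called (11.1%), Oat and Gulo, both negative, with a list median of -0.23. The difference between the lists was not tested. Oat and some of the periportal calls are also among the urea cycle calls. Igf1 is a periportal call and a call of the growth hormone and IGF1 axis, so these counts are not independent. Cyp2f2, a P450 of periportal hepatocytes, had -1.22 ± 0.18 (SE, adjusted p = 0.000221). Cyp2f2 had 489 CPM (341 to 576) in casein MR, against 1229.6 CPM (982 to 1550.4) in casein control. Levels in elemental MR were 1086 CPM (956 to 1291), against 1202 CPM (1018 to 1570.0) in elemental control. The casein MR libraries lay below every other library, and the elemental groups overlapped. Aldh1b1, an aldehyde dehydrogenase, had -1.47 ± 0.24 (SE, adjusted p = 0.000544) and Cdh1, E-cadherin, -0.65 ± 0.12 (SE, adjusted p = 0.00338). Gulo, the last enzyme of vitamin C synthesis, had -0.84 ± 0.14 (SE, adjusted p = 0.000869), with 309 CPM (279.8 to 345) in casein MR and 886 CPM (585 to 968) in casein control. Gulo was also lower with MR on elemental amino acids, at 410 to 536 CPM against 613 to 816 CPM in elemental control.

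In the growth hormone and IGF1 axis, 3 of 19 tested genes were called, all negative (15.8%, against 2.34%), with a list median of -0.05. Igf1, the growth factor that mediates most growth hormone action, had an interaction value of -0.50 ± 0.12 (SE, adjusted p = 0.0191). Igf1 had 737 CPM (651 to 766) in casein MR, against 1329 CPM (963 to 1517) in casein control. In elemental MR it had 993 CPM (878 to 1063), against 1225 CPM (1145 to 1453) in elemental control. The MR libraries of each source lay below its controls. Igfbp4, which binds IGF1, had -0.46 ± 0.11 (SE, adjusted p = 0.0191). Ghr, the growth hormone receptor, had -0.41 ± 0.11 (SE, adjusted p = 0.0478), and its call was lost in 16 of 24 fits made with 1 library removed. Of 39 male-biased liver genes, 4 were called with negative and 1 with positive value (12.8%), although 33 fell on casein and 32 on elemental amino acids. Hsd3b5, a male-specific steroid dehydrogenase, had the most negative value of the list, -3.42 ± 0.84 (SE, adjusted p = 0.0242). Hsd3b5 had 1.52 CPM (0.568 to 5.7) in casein MR, against 232 CPM (62.9 to 284) in casein control. The level was 10.2 CPM (2.8 to 76.5) in elemental MR and 165 CPM (109 to 232) in elemental control. One elemental MR library, E_MR_3420, was at 76.5 CPM, and without it the interaction value was -2.20 and the call was lost (adjusted p = 0.0693). The call was also lost without C_MR_3419 (-3.24, adjusted p = 0.0511). Serpina12, vaspin, had -1.76 ± 0.37 (SE, adjusted p = 0.00682). It fell on both sources, and on elemental amino acids it was at 6.2 to 17.1 CPM with MR, against 103 to 209 CPM in the controls. Dct, a melanin pathway enzyme, had -2.88 ± 0.74 (SE, adjusted p = 0.032). Dct was low in both MR groups, with 14 reads in all in the 6 casein MR libraries and 70 in the 6 elemental MR libraries. The control groups had 1044 reads on casein and 852 on elemental amino acids. The interaction of Dct thus compares 2 low MR levels, and its call was lost in 8 of the 24 fits. None of 25 female-biased genes was called in edgeR, with 5 at an unadjusted p under 0.05, 1 call in DESeq2 and 0 in limma-voom. Cyp2b9, a female-biased P450, rose on both sources, by 5.82 on casein and 5.12 on elemental amino acids, with an interaction value of 0.71 ± 0.72 (SE, adjusted p = 0.783) that was not called.

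Casein control carried 10 genes, and the leading one was Asns, asparagine synthetase, the best known ATF4 target. Asns had 63.7 CPM (50.01 to 72.3) in casein MR, against 1.81 CPM (0.763 to 3.56) in casein control. On elemental amino acids it had 72.6 CPM (58 to 80.4) with MR, against 8.06 CPM (3.67 to 10.4) in the control group. The casein MR and elemental MR libraries overlapped, and the casein control libraries lay below all elemental control libraries. MR raised Asns by 5.01 on casein and 3.23 on elemental amino acids, for an interaction value of 1.78 ± 0.31 (SE, adjusted p = 0.00155). Tcf24, a basic helix-loop-helix factor, had 2.02 ± 0.46 (SE, adjusted p = 0.014). Tcf24 had 12.2 CPM (9.1 to 13) in casein MR, against 0.36 CPM (0.125 to 0.871) in casein control. Elemental MR livers had 16.9 CPM (14.3 to 22), against 2.79 CPM (0.678 to 4.6) in elemental control livers. Casein MR lay below elemental MR, and the control groups overlapped with a lower median on casein. Zdhhc2, a palmitoyltransferase, had 1.29 ± 0.26 (SE, adjusted p = 0.00489) and the small Cajal body RNA gene Scarna17 1.26 ± 0.27 (SE, adjusted p = 0.00852). Asns, Tcf24 and Vldlr were the 3 called genes of 35 tested on the list of ATF4 targets (8.57%, against 2.34%), all positive. That list was written with earlier results of these data known, so this share is a description. The list median was 0.05, and 23 members rose on each source. Vldlr, a lipoprotein receptor, was mixed, with 24.9 CPM (20.7 to 30.2) in casein MR, against 1.97 CPM (0.873 to 2.1) in casein control, and 16.3 CPM (11.1 to 17.9) in elemental MR, against 2.67 CPM (1.73 to 4.11) in elemental control. Its interaction value was 1.39 ± 0.26 (SE, adjusted p = 0.00238). Psat1, a serine synthesis enzyme, was not called by edgeR (1.21 ± 0.40 (SE, adjusted p = 0.132)). It was called by DESeq2 (1.23, adjusted p = 0.0465) and by edgeR without E_MR_3405 (1.39, adjusted p = 0.0379), and limma-voom gave 1.96 without a call (adjusted p = 0.183). Nor did edgeR call Phgdh, the first step of serine synthesis (0.01 ± 0.40 (SE, adjusted p = 0.996)), which had 8 reads in all in casein control and 10 in elemental control. Fgf21, the hormone raised by amino acid shortage, had an interval from -2.03 to 1.88, too wide to compare the sources.

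The promoter windows of Asns and Vldlr are shown since both genes hold the amino acid response core TGATGNAA, at which ATF4 is known to bind, and both had a larger MR effect on casein. They are RefSeq windows of GRCm38.p6, from 250 bases before to 50 after the start, read 5′ to 3′ along the gene. Asns is at chr6:7693160-7693459 on the minus strand, and its match begins at base -23 from the start. Vldlr is at chr19:27216770-27217069 on the plus strand, and its match begins at base -200 and reads on the other strand. Capitals mark the matches.
Asns: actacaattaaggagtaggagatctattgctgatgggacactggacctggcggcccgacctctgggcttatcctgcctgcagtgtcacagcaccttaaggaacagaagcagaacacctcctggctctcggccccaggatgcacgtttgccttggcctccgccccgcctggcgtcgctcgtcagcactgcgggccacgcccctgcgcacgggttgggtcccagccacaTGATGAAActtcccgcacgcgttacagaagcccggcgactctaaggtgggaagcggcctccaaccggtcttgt
Vldlr: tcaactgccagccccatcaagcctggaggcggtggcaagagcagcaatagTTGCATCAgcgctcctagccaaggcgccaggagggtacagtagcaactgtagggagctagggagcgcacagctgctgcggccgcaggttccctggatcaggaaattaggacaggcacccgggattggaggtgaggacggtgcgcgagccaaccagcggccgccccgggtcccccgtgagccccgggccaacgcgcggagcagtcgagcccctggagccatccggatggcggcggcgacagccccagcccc
The core was found on either strand in 3.97% of the 32851 windows. Counted by gene, with any window enough, it was in 4.51% of 27025 genes and in 10 of the 29 ATF4 list members with a window. Of the 3 called members, 2 had a window and both held it. The list was meant to hold known ATF4 targets and was written with earlier results of these data known. A match is a description of these letters only.

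Elemental MR carried 9 genes, all with small values. Asgr2, a subunit of the asialoglycoprotein receptor, had -0.53 ± 0.10 (SE, adjusted p = 0.00371). Asgr2 had 182 CPM (157 to 191) in casein MR, against 194 CPM (167 to 234) in casein control. With elemental amino acids, MR livers had 245 CPM (215 to 266), against 185 CPM (163 to 207) in control livers. The elemental MR libraries were above the elemental controls and above casein MR, and the casein groups overlapped. Ccl9, a chemokine, had -0.84 ± 0.17 (SE, adjusted p = 0.00652), with 42.9 CPM (28.7 to 48.9) in elemental MR and 23.7 CPM (20.7 to 27.3) in elemental control. Acat3, an acetyl-CoA acetyltransferase, had -0.53 ± 0.11 (SE, adjusted p = 0.00682), and Rbp4, which carries retinol in blood, -0.37 ± 0.08 (SE, adjusted p = 0.00722). Abcb11, the bile salt export pump, had -0.44 ± 0.11 (SE, adjusted p = 0.0382), with 452 CPM (373 to 498) in elemental MR and 324 CPM (295 to 366) in elemental control. Its call was lost in 17 of 24 fits made with 1 library removed, that without C_MR_3438 among them.

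The MR effects had opposite signs in 112 of the 315 called genes, the casein effect was the larger of 2 with the same sign in 198, and the elemental effect was in 5. Both effects were called with opposite sign in 11 genes. The genes given next are not all among these 11, and Gm15441 had higher group medians with MR on both sources. Slc35f2, a solute carrier, had 3.15 ± 0.61 (SE, adjusted p = 0.00359). Slc35f2 had 8.33 CPM (4.08 to 11.3) in casein MR, against 1.34 CPM (0.968 to 7.65) in casein control. For elemental diets the values were 0.83 CPM (0.187 to 1.76) with MR and 2.23 CPM (2.11 to 3.33) in the controls. The casein groups overlapped through 1 control library, C_C_3407, at 7.65 CPM, and the elemental groups did not overlap. Sema5b, a semaphorin, had 2.41 ± 0.37 (SE, adjusted p = 0.000288), Bhlhb9 2.09 ± 0.31 (SE, adjusted p = 0.000235) and Med12l, a Mediator subunit paralogue, 2.72 ± 0.41 (SE, adjusted p = 0.000234). Med12l is a low-count gene, under the average log2 CPM of 1 set by the naming rule. Cyp2a12, a P450, had -0.72 ± 0.14 (SE, adjusted p = 0.00377), and it has close copies in its family. Mogat1, which makes diacylglycerol and was the 1 called gene of 32 in fatty acid and triglyceride synthesis, had 2.53 ± 0.59 (SE, adjusted p = 0.0168). Vil1, villin, an actin-bundling protein of microvilli, was detected mainly on elemental amino acids. Levels in elemental MR were 8.22 CPM (5.46 to 10.1), against 2.58 CPM (1.82 to 3.08) in elemental control. In the casein groups it was near 0, with 7 reads in all in casein MR and 18 in casein control, so its fitted value of -3.25 ± 0.87 (SE, adjusted p = 0.0423) depends on a handful of reads, and its call was lost in 14 of the 24 fits, C_MR_3438 among them. Cfd, adipsin, a fat cell marker, had -4.07 ± 1.08 (SE, adjusted p = 0.0414) and lost its call in 16 of the 24 fits. Without E_MR_3423 its value was -2.68 (adjusted p = 0.194). Outside the naming rule, and chosen after its value was seen, Gm15441 had 4.21 ± 0.56 (SE, adjusted p = 6.99e-05). Gm15441 had 7.72 CPM (5.63 to 13.8) in casein MR, against 0.36 CPM (0.176 to 0.525) in casein control. In elemental MR it had 0.724 CPM (0.436 to 1.45), against 0.538 CPM (0.181 to 1.38) in elemental control. It contains Txnip on the opposite strand, whose interaction value was -0.10 ± 0.23 (SE, adjusted p = 0.916), and no source used here gives the strand of the libraries, so their reads may not be separable.

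The other lists are read against the same 2.34% of all genes called. In NRF2 targets and glutathione metabolism 2 of 43 were called (4.65%), Cbr1, a carbonyl reductase (1.19 ± 0.19 (SE, adjusted p = 0.000423)), and Gstm4, a glutathione transferase with close copies (0.66 ± 0.15 (SE, adjusted p = 0.0134)), both positive. The antioxidant response element TGACNNNGC was in 13 of the 37 list members with a promoter window, and in 0 of the 2 called. Counted by gene, it was in 13.99% of 27025 genes. Gclc, which limits glutathione synthesis, rose on both sources, by 0.82 on casein and 0.72 on elemental amino acids, and was not called (0.11 ± 0.15 (SE, adjusted p = 0.863)). Gstm3, another transferase, rose by 1.73 on casein and 1.62 on elemental amino acids, and was not called (0.11 ± 0.31 (SE, adjusted p = 0.932)). In bile acid synthesis and transport 2 of 24 were called (8.33%), Abcb11 and Slc10a1, the bile salt uptake carrier (-0.51 ± 0.11 (SE, adjusted p = 0.00866)). Gckr, the glucokinase regulator (-0.38 ± 0.09 (SE, adjusted p = 0.024)), P4hb, a protein disulfide isomerase (-0.31 ± 0.08 (SE, adjusted p = 0.0494)), and Ces2a, a carboxylesterase (-0.69 ± 0.16 (SE, adjusted p = 0.0134)), were the 1 call each in gluconeogenesis and glycolysis (1 of 28), the unfolded protein response (1 of 25) and the CAR and PXR list (1 of 22). The call of P4hb was lost in 20 of the 24 fits, that without C_MR_3438 among them. The call of Gckr was lost in 3, those without E_C_3418, C_C_3413 or C_C_3437. For cholesterol synthesis and uptake 0 of 27 were called in edgeR, DESeq2 or limma-voom, with 7 at an unadjusted p under 0.05. All 27 values were below 0 and the median was -0.47, and 20 members fell on casein and 3 on elemental amino acids. The interaction interval lay within 2-fold in either direction for 9 of the 27. Likewise 0 were called in edgeR of 48 cytosolic ribosomal proteins, 46 nuclear-encoded respiratory chain genes, 38 interferon-stimulated genes, 22 cell cycle genes, 20 cytosolic aminoacyl-tRNA synthetases, 19 clock genes and 4 methionine sulfoxide reductases. At an unadjusted p under 0.05 there were 0, 6, 1, 1, 2, 0 and 1 in that order. DESeq2 called 1 respiratory chain gene and 1 cell cycle gene, and limma-voom called 1 synthetase. The interval lay within 2-fold for all 48 ribosomal, all 46 respiratory chain, all 20 synthetase and all 4 reductase genes. Msra, the reductase that repairs oxidised methionine in proteins, had -0.08 ± 0.08 (SE, adjusted p = 0.792) (95% interval -0.25 to 0.09). Scd1 and Fasn, which make monounsaturated and saturated fatty acids, fell on both sources and were not called (-0.00 ± 0.42 (SE, adjusted p = 0.999) and -0.64 ± 0.41 (SE, adjusted p = 0.584)).

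**Figure D4:**
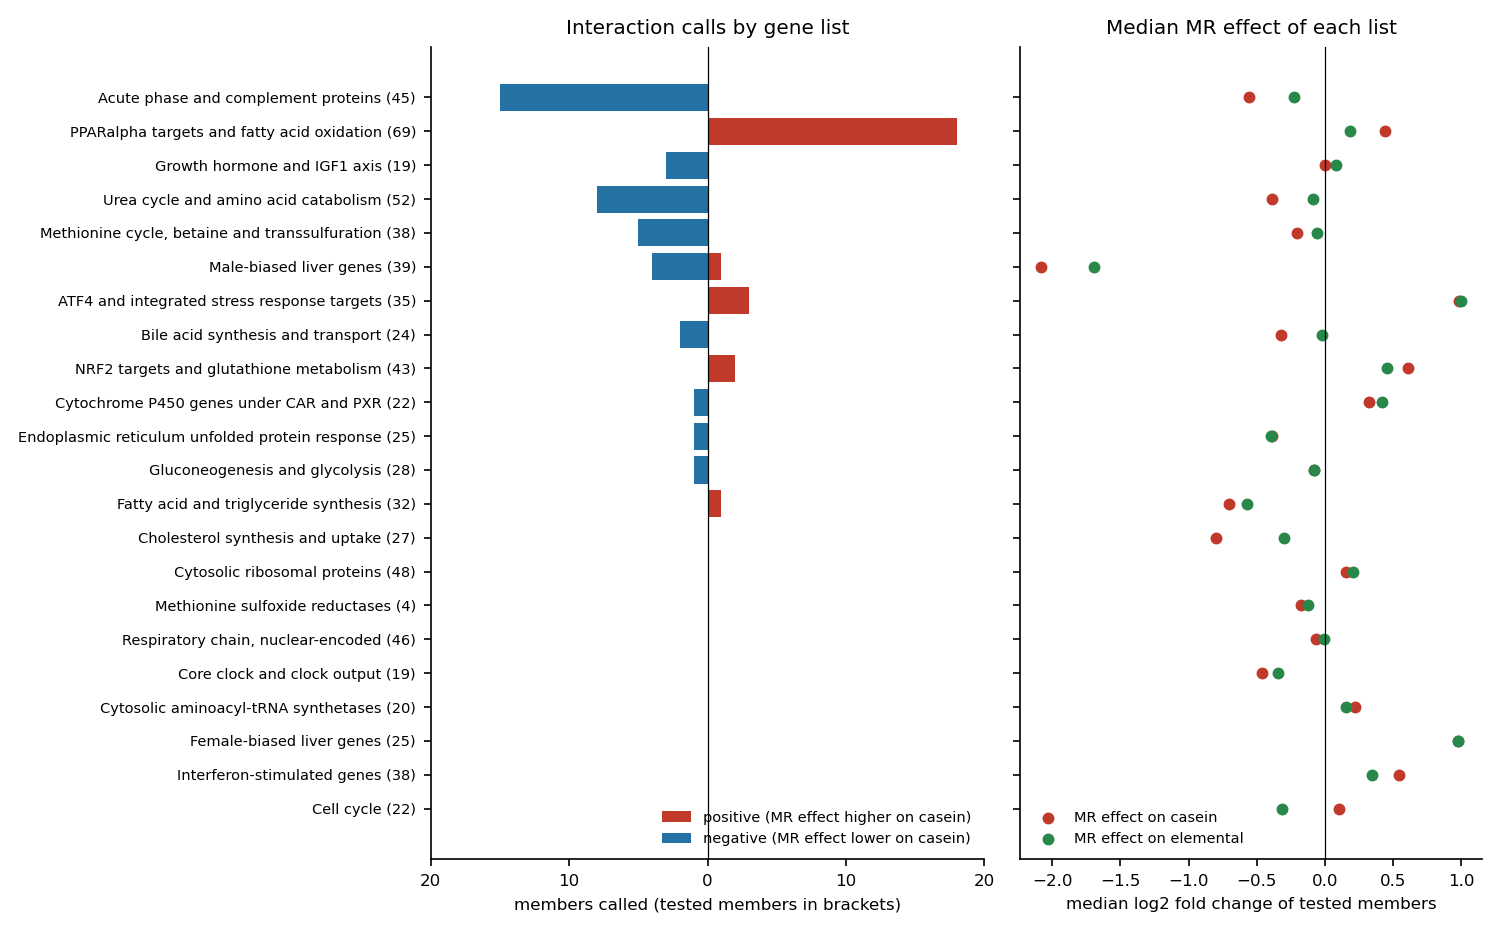
Left, bars give the number of tested members of each gene list that were called, positive to the right and negative to the left, with the number tested in brackets. Right, points give the median log2 MR effect of the same members on casein and on elemental amino acids. Acute phase and complement proteins (15 of 45) and PPARalpha targets (18 of 69) have the longest bars.

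The analysis was repeated without the casein MR library C_MR_3438, which held the skeletal muscle markers. With 23 libraries, 288 of 13544 tested genes were called (2.13%), 97 positive (0.716%) and 191 negative (1.41%). In both fits 272 genes were called, 93 positive and 179 negative. The 43 genes lost had a median interaction size of 0.50. As edgeR called 0 skeletal muscle markers with all libraries, none could be among the genes lost. The 16 muscle markers tested had a median interaction value of 4.03 with all libraries, and 0.59 without C_MR_3438. None was called by edgeR in either fit. With all libraries 13 of the 16 had an unadjusted p under 0.05, DESeq2 called 1 and limma-voom 0, and the casein MR effect was called for 15 of 16 with all libraries and for 1 of 16 without it. Acta1, skeletal muscle actin, had 1.99 CPM (1.03 to 644) in casein MR, and C_MR_3438 alone was at 644 CPM. Sorted by group, casein MR carried 194 of the 288 genes, casein control 11, elemental MR 8 and elemental control 0, and 75 were mixed. PPARalpha targets had 17 called genes, acute phase and complement proteins 13, amino acid catabolism 8 and the methionine cycle list 5, each with the sign they had with 24 libraries.

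**Figure D5:**
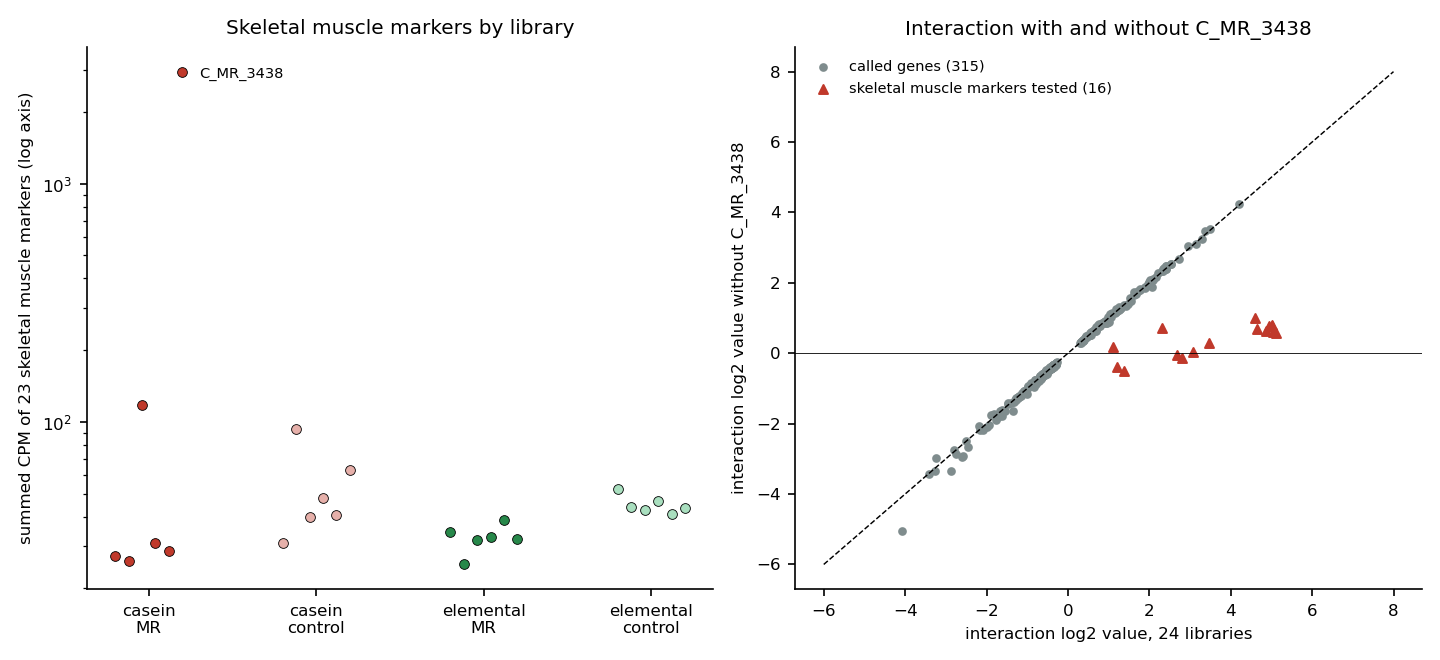
Left, the summed CPM of 23 skeletal muscle markers in each library on a log axis, with C_MR_3438 at 2955 CPM. Right, the interaction log2 value of the 315 called genes (grey) and the 16 muscle markers tested (red) with all libraries against the value without C_MR_3438, with a dashed line of equality. The grey points follow the line, and the red points fall to between -0.51 and 0.99.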

How the data were processed

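RNA of mouse liver was sequenced in 24 libraries. The authors deposited raw read counts, whole numbers per gene and library for 15161 genes, and a normalized signal table. That deposited signal was checked to equal the counts divided by 1 size factor per library (0.745 to 1.32), and it served for that check and for gene symbols. No source used here gives the aligner, the counting tool, the strand or the genome build.

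The count model was edgeR 4.0.16 under R 4.3.3. Genes passing filterByExpr were kept (13441 genes, 99.93% of reads), TMM gave the library scaling, and a quasi-likelihood fit with 1 mean per group was made on all 24 libraries. The interaction and the simple effects were contrasts of this fit. P-values were adjusted over all tested genes by the Benjamini-Hochberg method, and an adjusted p under 0.05 is called. The SE comes from the log2 value and its F statistic, and intervals are 95% t intervals. The code was tested on simulated counts.

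Named genes were the 12 largest positive and 12 largest negative values called with and without C_MR_3438 (average log2 CPM of at least 1, no predicted or clone name), the 4 smallest p per carrying group and of opposite sign, the 4 smallest p per list described, and 23 further genes. The members, the 22 pathway and 14 marker lists and the rules were chosen with earlier results of these data known. Not every gene under the rule is named, and some results are not reported here. Alternatives were other scalings, filters and tests (DESeq2 1.42.0, limma-voom from limma 3.58.1, sva 3.50.0), stricter thresholds, and leaving out each library. List counts under other scalings, DESeq2 and limma-voom, and muscle marker sums without C_MR_3438, were chosen after seeing the data. The labels name no batch. All 24 libraries entered the main tests.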

Additional observations from a re-analysis of the deposited data

Results flagged for a closer look

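The MR effects on casein and on elemental amino acids differed in edgeR's interaction test (adjusted p under 0.05) for 79 genes named above. The values are the interaction in log2 units, casein minus elemental, and the groups are those that carry it. Positive values of genes carried by casein MR were 4.21 for Gm15441, 2.53 for Mogat1, 2.53 for Krt23, 2.41 for Peg3, 2.40 for Ehhadh, 2.33 for Adgrg2, 2.08 for Lpl, 1.89 for Cyp4a10, 1.73 for Acot1, 1.68 for Acot2, 1.47 for Serinc2 and 1.43 for Ucp2. Further such values were 1.19 for Cbr1, 1.16 for Hsd17b11, 0.66 for Gstm4, 0.58 for Acadm, 0.54 for Hadhb, 0.38 for Acadl, 0.31 for Decr1 and 0.31 for Acadvl. Negative values of genes carried by casein MR were -3.42 for Hsd3b5, -3.27 for Ptgds, -2.88 for Dct, -2.80 for Ncam2, -2.74 for Bhmt, -2.58 for Nnmt, -2.51 for Apoa4, -2.16 for Slc22a7, -2.09 for Cenpm, -1.99 for Nat8, -1.88 for Dsg1c and -1.76 for Serpina12. Further such values were -1.73 for C9, -1.62 for Orm1, -1.47 for Aldh1b1, -1.22 for Cyp2f2, -1.16 for Oat, -0.84 for Gulo, -0.82 for Dmgdh, -0.75 for Gnmt, -0.65 for Cdh1, -0.63 for Asl, -0.61 for Agxt2 and -0.56 for Gamt. Next came -0.54 for C1s1, -0.50 for Igf1, -0.49 for F9, -0.46 for Igfbp4, -0.45 for Trf, -0.41 for Ghr, -0.36 for Alb, -0.35 for Ttr and -0.31 for P4hb. Positive values of genes carried by casein control were 2.02 for Tcf24, 1.78 for Asns, 1.29 for Zdhhc2 and 1.26 for Scarna17. Negative values of genes carried by elemental MR were -0.84 for Ccl9, -0.53 for Asgr2, -0.53 for Acat3, -0.44 for Abcb11 and -0.37 for Rbp4. Positive values of mixed genes were 3.15 for Slc35f2, 2.72 for Med12l, 2.41 for Sema5b, 2.35 for Cyp4a31, 2.17 for Cyp4a14, 2.09 for Bhlhb9, 1.39 for Vldlr and 0.37 for Hadha. Negative values of mixed genes were -4.07 for Cfd, -3.25 for Vil1, -1.95 for Mmd2, -0.86 for Prodh, -0.72 for Ahsg, -0.72 for Cyp2a12, -0.69 for Ces2a, -0.51 for Slc10a1 and -0.38 for Gckr.

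In 28 of 376 groups of 6 libraries of the named genes, 1 library lay farther from the next than the spread of its group allows at 95% (Dixon's test), and chance alone marks about 1 group in 20. The 28 fall in 15 libraries. In C_C_3407 (casein control) the level was 7.65 CPM for Slc35f2, 3.48 CPM for Mogat1, 1315 CPM for Apoa4, 3536 CPM for Rbp4 and 6.53 CPM for Cyp2b9. In C_C_3413 (casein control) the level was 9.63 CPM for Acta1. In C_C_3436 (casein control) the level was 2.21 CPM for Zdhhc2 and 4.98 CPM for Fgf21. In C_C_3437 (casein control) the level was 344 CPM for Hsd17b11 and 762 CPM for Oat. In C_MR_3412 (casein MR) the level was 216 CPM for Fasn. In C_MR_3425 (casein MR) the level was 444 CPM for Cyp4a31. In C_MR_3431 (casein MR) the level was 0.258 CPM for Vil1. In C_MR_3433 (casein MR) the level was 9242 CPM for Ahsg, 226 CPM for Cpt1a and 516 CPM for P4hb. In C_MR_3438 (casein MR) the level was 0.273 CPM for Dct, 8.05 CPM for Nnmt, 651 CPM for Igf1, 2.002 CPM for Cfd and 644 CPM for Acta1. In E_C_3428 (elemental control) the level was 14.2 CPM for Fgf21. In E_C_3430 (elemental control) the level was 5.62 CPM for Krt23. In E_MR_3405 (elemental MR) the level was 18.4 CPM for Ucp2 and 122 CPM for Acot2. In E_MR_3416 (elemental MR) the level was 0.561 CPM for Bhlhb9. In E_MR_3420 (elemental MR) the level was 76.5 CPM for Hsd3b5. In E_MR_3423 (elemental MR) the level was 6.67 CPM for Cfd.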

How the results depend on the processing

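The interaction count of 315 genes was 314 with DESeq2 size factors, 297 with upper quartile scaling, 292 without a filter, 324 with a stricter filter, 452 with the DESeq2 Wald test, 358 with limma-voom and 302 with 1 surrogate variable. Leaving out 1 library gave 227 (without C_C_3413) to 404 (without C_C_3407) genes, 79 to 143 positive and 148 to 261 negative. At an adjusted p under 0.01 there were 153 genes (58 positive, 95 negative), and at 2-fold 97 (51 and 46), fewer by construction. With the same stricter limits the casein MR effect had 674 genes at 2-fold, the elemental MR effect 974 at 0.01 and 327 at 2-fold, and casein against elemental on MR diets 450 and 174. On control diets, the 14 genes became 74 with DESeq2, 3 with limma-voom, 3 at 0.01, 6 at 2-fold and 5 to 33 with a library left out (33 without C_C_3407), and the cause was not tested. With a share over 1 part in 2, casein control carried 29, elemental MR 25, elemental control 3 and mixed 0 genes.

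Of 79 called genes named, 0 changed sign and 68 kept their call in all 24 fits without a library. Over the 7 other scalings, filters and tests, 67 kept theirs. Limma-voom lost the calls of Mogat1, Tcf24, Hsd3b5, Dct, Mmd2, Vil1 and Cfd. With 1 surrogate variable those of Hadha, Abcb11, Vil1, P4hb and Decr1 were lost, with upper quartile scaling those of Abcb11, Ghr and P4hb, without a filter those of Ghr, P4hb and Decr1, and with DESeq2 size factors that of P4hb. Signs turned for 8 genes that were not called. With upper quartile scaling Cbs was 0.00602 and Scd1 0.0111, and with the stricter filter 0.00164 and 0.00506. With limma-voom Scd1 was 0.19 and Fgf21 0.073, and with 1 surrogate variable Fgf21 was 0.107 and Acta1 -0.105. Over the fits without a library, values ran from -0.28 to 0.63 for Phgdh, -0.0958 to 0.0434 for Cbs, -0.88 to 0.42 for Fgf21, -0.0239 to 0.26 for Gstm3, -0.14 to 0.0216 for Cpt1a, -0.16 to 0.208 for Scd1 and -0.20 to 0.0271 for Txnip. No paired analysis was possible because the libraries of the groups share no replicate number. Depth limits genes with few reads, such as Dct, Vil1 and Phgdh.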
